A study of Mus musculus with 8 samples.

Results

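E2f1, E2f3 and Hells were examined as loci in a study that profiled the proteins E2F3 and HELLS on chromatin, so that E2f3 and Hells are the genes of the profiled proteins themselves. The 3 loci were taken as fixed windows of mm9: chromosome 2 from 154380000 to 154400000 for E2f1, chromosome 13 from 29990000 to 30085000 for E2f3 and chromosome 19 from 39000000 to 39050000 for Hells. Together they held 330 of 5283703 bins of 500 bp and 7 of the 43575 peaks that the authors listed over 6 ChIP libraries. The windows were set without use of read values. The questions were whether E2F3 bound its own gene and those of E2F1 and HELLS, whether HELLS lay at its own gene, and what remained without E2f3.

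E2F1 and E2F3 are transcription factors that bind DNA with a DP partner and switch on genes for DNA replication and the cell cycle, and the retinoblastoma protein holds them in check. E2F genes are known targets of E2F factors themselves, and E2f3 has a pair of promoters that give the longer E2F3a and the shorter E2F3b protein. HELLS, also called LSH, is a helicase of the SNF2 family that remodels nucleosomes and is needed for DNA methylation. H3K27me3 is the mark that Polycomb complexes leave on silent genes.

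The material was mouse embryonic fibroblasts at E13.5, either wild type or E2f3-/- (called E2f3-null below). Chromatin of each genotype was precipitated with antibodies against E2F3, HELLS and H3K27me3 and with IgG, which gave 8 samples with 1 library per group. There were no replicates, so each comparison sets 1 library against another and not the conditions, no p-value is given, and intervals are 95% intervals that cover counting error only. The part of the gene that the E2f3-/- allele lacks, and how many embryos went into each culture, were given by none of the sources used here. The fibroblast label was not set against marker genes, since the files hold chromatin reads and no expression values. The ChIP libraries held 3799779 to 5640555 distinct reads. The IgG files of both genotypes were identical, so IgG counted as 1 background library of 7219419 distinct reads. The authors' headers give controls of 3444066 and 3791438 tags for the genotypes, which sum to 7235504, so neither total is that of the IgG file used here. A level is the number of reads per 1000000 background reads, which are the distinct reads of a library outside all listed peaks of the series, and is given in normalised reads.

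The promoter windows of RefSeq are shown first, because wild-type E2F3 reads stood above IgG at 1 place in the Hells window and at 2 places in the E2f3 window. Each sequence is the 250 bases before an annotated start site of GRCm38.p6, read 5′ to 3′ on the strand of the gene. Capitals mark an E2F motif, searched on both strands as TTTCCCGC, TTTCGCGC, TTTGGCGC or TTTGCCGC, which do not overlap each other in these windows.
Hells, chr19:38930740-38930989, plus strand: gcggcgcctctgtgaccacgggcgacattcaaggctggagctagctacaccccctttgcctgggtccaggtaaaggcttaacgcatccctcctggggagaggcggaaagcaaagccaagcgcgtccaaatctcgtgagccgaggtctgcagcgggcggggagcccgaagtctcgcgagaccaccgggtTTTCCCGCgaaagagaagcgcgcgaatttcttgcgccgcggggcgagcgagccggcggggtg
E2f3, upstream start site, chr13:29986064-29986313, minus strand: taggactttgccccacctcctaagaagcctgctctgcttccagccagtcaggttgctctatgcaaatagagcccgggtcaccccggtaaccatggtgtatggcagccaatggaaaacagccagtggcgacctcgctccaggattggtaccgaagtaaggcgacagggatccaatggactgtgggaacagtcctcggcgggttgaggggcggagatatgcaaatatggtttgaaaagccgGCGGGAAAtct
E2f3, downstream start site, chr13:29984392-29984641, minus strand: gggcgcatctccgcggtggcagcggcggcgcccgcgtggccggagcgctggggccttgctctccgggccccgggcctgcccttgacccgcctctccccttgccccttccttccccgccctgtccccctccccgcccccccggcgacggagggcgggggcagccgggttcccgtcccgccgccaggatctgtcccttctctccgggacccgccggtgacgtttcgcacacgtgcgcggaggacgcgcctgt
The Hells window held TTTCCCGC with its first base 62 bases before the start site, which itself lies 728 bp inside the 5′ end of the annotated gene. The upstream E2f3 window held the same motif on the opposite strand, with its leftmost base 11 bases before that start site. The downstream E2f3 window held none of the 4 motifs. Among 32851 RefSeq promoter windows, 1.86% held at least 1 of them in these 250 bases, so that a match is uncommon, but it is a description of letters and not a bound site. The RefSeq entry for E2f1, whose start site lies 466 bp inside the annotated gene, holds no match and is not printed. Of 14 genes of the E2F, DP, retinoblastoma and HELLS families, 11 had an entry and 5 of these (E2f3, E2f7, Tfdp1, Rbl1 and Hells) had a motif before a start site. These sequences belong to another build than the reads, so they were not laid under the peaks. Read values for the other genes of that list are not analysed here for the same reason. In the genome, E2f1 and E2f3 are transcribed towards lower coordinates and Hells towards higher ones, so the leading peaks below lie at the end of each window where its gene is known to begin. The distance from a peak to a start site was not measured.

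The targeted gene, E2f3, was looked at first for stretches without reads. Over the E2f3 window the 3 wild-type ChIP libraries held 988 reads and the 3 E2f3-null libraries 798. Of its 190 bins, 14 had 0 E2f3-null reads, against 9 with 0 wild-type reads. The longest empty run in E2f3-null cells was 1.5 kb from position 30009001 and held 12 wild-type reads. Empty runs of 1.5 kb in E2f3-null and 2 kb in wild-type libraries also occurred in the Hells window. At 5.2 wild-type reads per bin, a deletion of about the length of such runs or shorter was not told apart from low depth. The genotype of the libraries was therefore not checked by this search.

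Of the leading regions, that of E2f1 held the most wild-type E2F3 reads, over 985 bp against 669 bp at Hells and 500 bp at E2f3. Each leading region was chosen by its wild-type E2F3 score or reads, so the wild-type E2F3 values there are a description, and the fall without E2f3 leans large. The authors' deposited table lists a wild-type E2F3 peak on chromosome 2 from 154395040 to 154396024 with 155 tags, a score of 842.01 and a 25.31-fold enrichment, which stood at place 203 of 8889 by score. In this region the wild-type E2F3 library held 155 reads, or a level of 36.6 normalised reads (31.1 to 42.9). The E2f3-null library held 33 reads, or 8.11 normalised reads (5.58 to 11.4). IgG held 21 reads, or 3.02 normalised reads (1.87 to 4.61). The wild-type level thus stood clear of both others, and the intervals of the E2f3-null and IgG levels did not overlap either. Wild-type E2F3 reads were 12.1 times IgG (7.67 to 20.2), and the null-to-wild-type ratio of scaled reads was 0.221 (0.147 to 0.324).

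Part of the E2F3 antibody signal at E2f1 stayed without E2f3. E2f3-null reads were 2.69 times IgG (1.51 to 4.89), and the authors' deposited table lists a peak there in E2f3-null cells too, with 33 tags and a score of 152.24, at place 152 of 3314. Of all 9643 E2F3 regions, 20.6% had an enrichment over IgG in E2f3-null cells at least as high. HELLS reads numbered 37 and 38 in the same order of genotypes, a ratio of 1.02 (0.631 to 1.65). They were 2.44 times IgG (1.39 to 4.38) and 2.49 times IgG (1.42 to 4.46). The authors' deposited table lists a HELLS peak here in E2f3-null cells alone, with 37 tags and a score of 122.88, at place 1402 of 4740. The 2 HELLS levels overlapped each other and lay beside the E2f3-null level of the E2F3 antibody, with HELLS at 0.926 times that level (0.565 to 1.52). The 11 wild-type and 8 E2f3-null H3K27me3 reads were at 0.771 and 0.753 times IgG, with intervals that included 1.

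**Figure D1:**
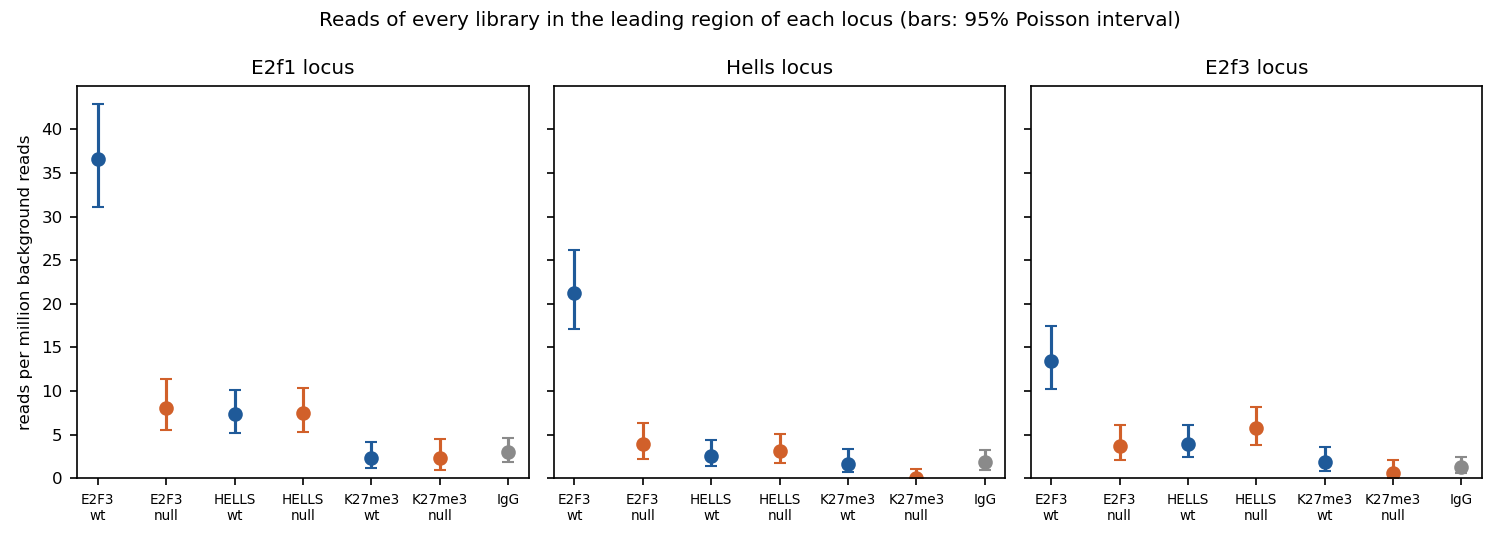
Normalised reads (vertical axis) in the leading region of the E2f1, Hells and E2f3 loci for each of the 7 libraries on the horizontal axis (wt, wild type; null, E2f3 null; K27me3, H3K27me3). Points are single libraries and bars are 95% Poisson intervals; the wild-type E2F3 point stands above all others at each locus, with 155, 90 and 57 reads behind it.

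What stayed at E2f1 was not spread like the wild-type peak. The summit of the E2f3-null peak lay 152 bp to the left of the wild-type summit at 154395604, and that of the E2f3-null HELLS peak lay 169 bp to the left. To the left of the wild-type summit, towards the gene body, the E2F3 antibody had 86 wild-type and 32 E2f3-null reads. To the right it had 69 wild-type reads and 1 E2f3-null read, beside 5 IgG reads. The right side thus lost nearly all its reads while the left side kept part of them, an odds ratio of 25.4 with a wide interval (4.03 to 1060). HELLS reads leaned to the same side, with 32 left and 5 right in wild type and 33 and 5 without E2f3. Relative to wild-type E2F3 their odds ratios were 5.10 (1.84 to 17.7) and 5.26 (1.90 to 18.2). IgG had 16 and 5 reads, an odds ratio of 2.55 (0.840 to 9.37). H3K27me3, which was not above IgG in this region, leaned left too. It had 10 reads left and 1 right in wild type, and 8 and 0 without E2f3. Relative to wild-type E2F3, the intervals of both its odds ratios excluded 1. The lean was thus not particular to HELLS and the E2f3-null reads of the E2F3 antibody. The split at the summit was chosen after the profile was seen. Among 671 wild-type E2F3 peaks with at least 100 wild-type and 20 E2f3-null reads, 29.1% had an interval that excluded 1 and 13 peaks (1.94%) were at least as uneven as E2f1.

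At Hells the E2F3 antibody gave a single sharp peak that was lost from the authors' list without E2f3. The authors' deposited table lists it in wild-type cells on chromosome 19 from 39005143 to 39005811, with 90 tags, a score of 665.82 and a 52.40-fold enrichment, at place 354 of 8889. The wild-type E2F3 library held 90 reads there, or a level of 21.3 normalised reads (17.1 to 26.1). The E2f3-null library held 16 reads, or 3.93 normalised reads (2.25 to 6.38), and IgG 13 reads, or 1.87 normalised reads (0.995 to 3.19). The wild-type level stood apart, and the intervals of the E2f3-null and IgG levels overlapped. Wild-type reads were 11.4 times IgG (6.33 to 22.2) and E2f3-null reads 2.10 times IgG (0.949 to 4.75). The null-to-wild-type ratio was 0.185 (0.101 to 0.317). Reads fell on both sides of the summit at 39005429 alike, from 32 to 6 on the left and from 58 to 10 on the right (odds ratio 1.09, 0.296 to 3.67).

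HELLS was not detectable above IgG at its own gene's peak. The HELLS libraries held 13 wild-type and 16 E2f3-null reads in this region beside the 13 IgG reads. That is 1.38 times IgG (0.591 to 3.24) and 1.69 times IgG (0.763 to 3.82). Both intervals included 1, and the counts do not exclude an enrichment up to those upper bounds. None of the HELLS lists has a peak in the Hells window, and no 500 bp bin of the window was enriched for HELLS in either genotype. There were 8 H3K27me3 reads in wild type and 0 without E2f3, a ratio of 0 with an upper bound of 0.787. The wild-type reads were at 0.906 times IgG (0.326 to 2.36), an interval that included 1.

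**Figure D2:**
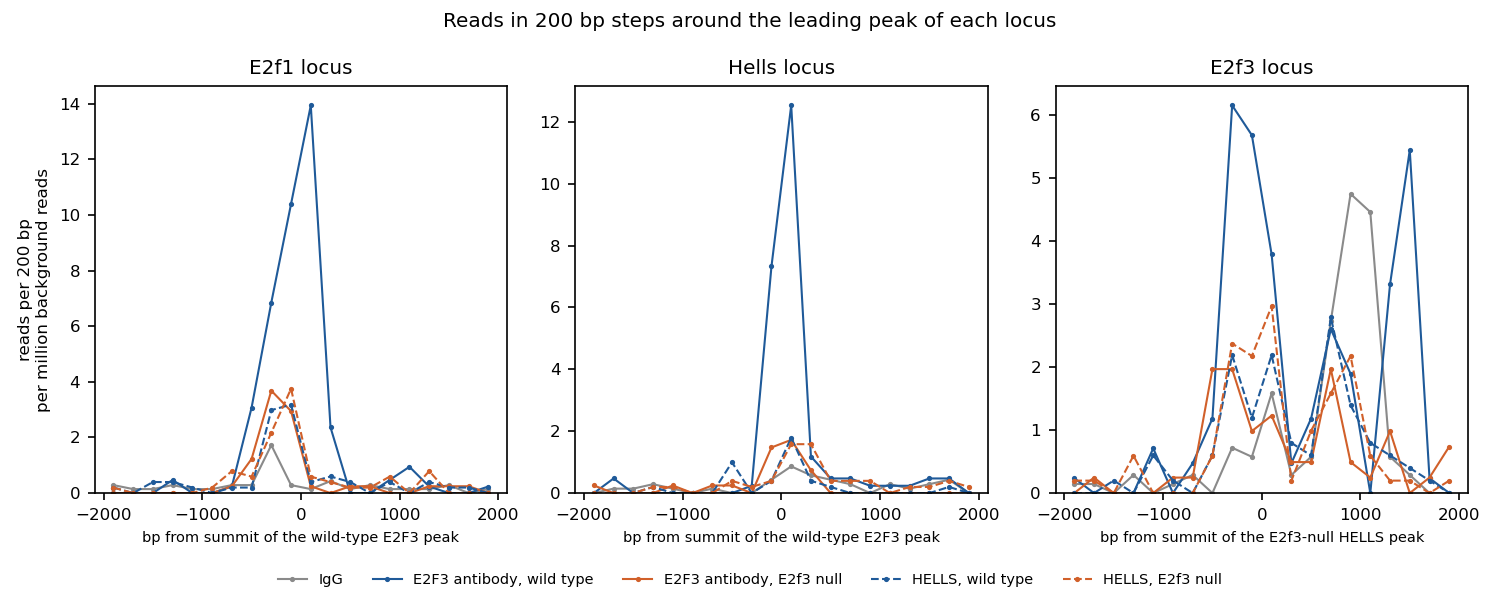
Normalised reads in steps of 200 bp (vertical axis) against the distance in bp from the summit of the wild-type E2F3 peak (E2f1, Hells) or of the E2f3-null HELLS peak (E2f3). Solid lines are the E2F3 antibody, dashed lines HELLS and the grey line IgG; the E2f3-null E2F3 line of E2f1 is high left of the summit and holds 1 read in the step to its right, and E2f3 shows wild-type E2F3 maxima on both sides of a stretch rich in IgG reads.

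At E2f3 itself no list holds an E2F3 peak, yet wild-type E2F3 reads were dense near the start of the gene. The bin with most wild-type E2F3 reads in the window, on chromosome 13 from 30076001 to 30076500, held 57 of them beside 9 IgG reads, or 10.4 times IgG (5.12 to 23.9). Over the genome 782 bins of 500 bp had as many wild-type E2F3 reads at as high a ratio to IgG. Of these, 781 touched a listed wild-type E2F3 peak, and the bin at E2f3 was the 1 that did not. Both cutoffs were the values of this bin itself, so it was counted by construction, and bins below them were not looked at. In E2f3-null cells the bin held 15 reads of the E2F3 antibody, a ratio to wild type of 0.273 (0.144 to 0.490) and 2.85 times IgG (1.17 to 7.38). HELLS had 20 wild-type and 29 E2f3-null reads in this bin, at 3.08 times IgG (1.34 to 7.67) and 4.43 times IgG (2.04 to 10.6).

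The wild-type E2F3 reads at E2f3 formed 2 maxima. Their densest stretches of 200 bp were centred on 30076260, with 37 reads, and on 30077880, with 32 reads, 1620 bp apart. The RefSeq start sites of E2f3 lie 1672 bp apart in GRCm38.p6. That is another build than that of the reads, and whether the maxima lie at these start sites was not tested. Around the lower-coordinate maximum, from 30075880 to 30076679, the E2F3 antibody had 71 wild-type and 25 E2f3-null reads and IgG had 20. Its null-to-wild-type ratio was 0.366 (0.222 to 0.585), and E2f3-null reads were still 2.14 times IgG (1.14 to 4.06). Around the higher-coordinate maximum, from 30077680 to 30078279, the antibody had 38 wild-type and 5 E2f3-null reads and IgG had 6. There the ratio was 0.137 (0.0420 to 0.348), and E2f3-null reads were 1.42 times IgG (0.344 to 5.60). The 2 ratios did not differ beyond counting error, with an odds ratio of 0.376 (0.104 to 1.11). These stretches were chosen after the profile was seen.

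HELLS reads stood above IgG at the lower-coordinate maximum of E2f3, and at the other they were too few to tell. The authors' deposited table lists a HELLS peak in E2f3-null cells from 30075902 to 30076757, with 42 tags and a score of 79.23, at place 2803 of 4740. In this region HELLS had 34 reads in wild type and 42 without E2f3, a ratio of 1.23 (0.762 to 1.99). Both were above the 22 IgG reads, at 2.14 times (1.22 to 3.84) and 2.62 times (1.53 to 4.62), so that the region is listed in E2f3-null cells alone although the 2 libraries did not differ beyond counting error. At the higher-coordinate maximum HELLS had 6 and 2 reads beside 6 of IgG. That is 1.38 times IgG (0.370 to 5.18) in wild type and 0.458 times (0.0452 to 2.56) without E2f3. Both intervals included 1 and overlapped those of the listed region, and the difference between the maxima was not tested. H3K27me3 reads in the lower-coordinate stretch were 13 with and 3 without E2f3, neither above IgG.

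Between the maxima lay a stretch with many IgG reads. From 30077080 to 30077679 IgG held 83 reads. In wild-type and E2f3-null cells the E2F3 antibody held 19 and 11 reads, HELLS 25 and 22 and H3K27me3 12 and 1. The null-to-wild-type ratio of H3K27me3 was 0.112 (0.00262 to 0.756), while the intervals for E2F3 and HELLS included 1. The core of this stretch, 126 bp from 30077399 to 30077524, had 32 IgG reads on the plus and 25 on the minus strand. It is 1 of 62 stretches in the genome where at least 3 IgG reads overlap over 100 bp or more. The deposited peaks were called against IgG reads with a local background of the surroundings, per the file headers. In the IgG file used here, the surroundings of the leading bin held 24 reads in 1 kb, 39 in 2 kb and 147 in 10 kb. The total of that file is not that of the authors' control, so the counts behind the calls may differ. The part of these IgG reads in the missing E2F3 peaks was not tested.

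**Figure D3:**
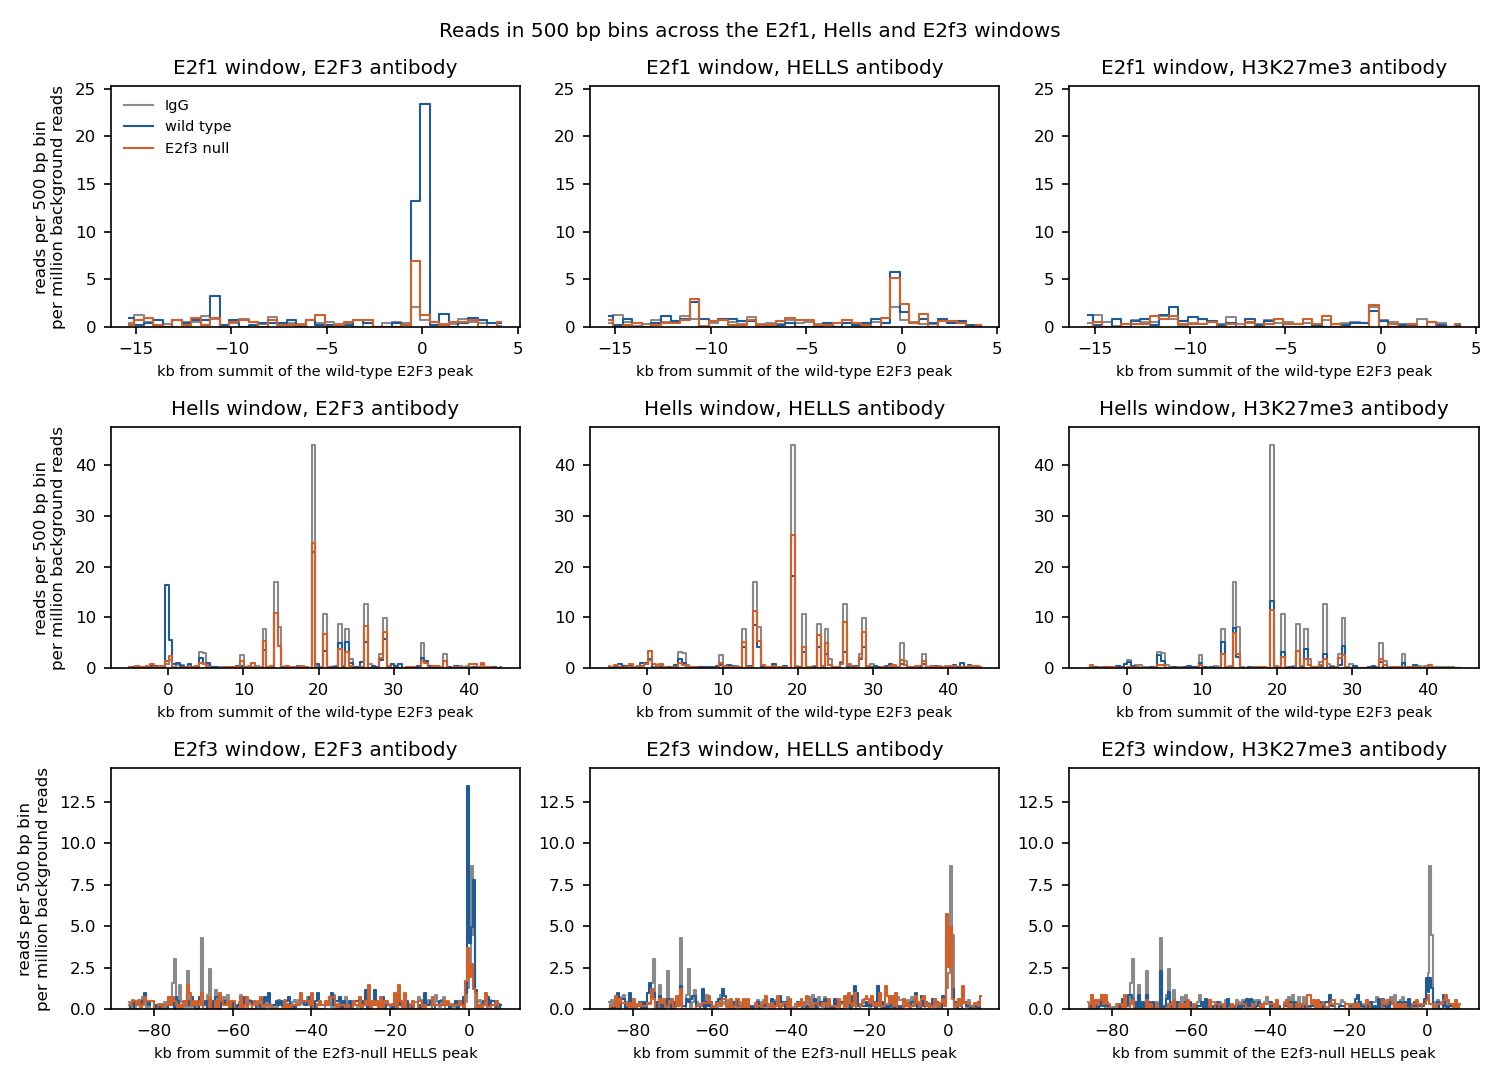
Normalised reads per 500 bp bin (vertical axis) across the windows of E2f1, Hells and E2f3 for the antibodies against E2F3, HELLS and H3K27me3, against the distance in kb from the summit named on each horizontal axis. Wild-type E2F3 (blue) rises above E2f3-null (orange) and IgG (grey) at 0 kb at E2f1 and Hells, and the Hells window has IgG maxima that recur in all libraries.

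IgG reads were far denser in the Hells window than elsewhere. Of its 100 bins, 10 held at least 30 IgG reads, against 296 of 5283703 bins (0.00560%) over the genome, 3 of 190 in the E2f3 window and 0 of 40 in the E2f1 window. Of 79 windows of 50 kb with any such bin, 5 had more than the 10 of Hells. The 10 bins lay between 39018001 and 39039500, with centres 12.8 to 33.8 kb from the E2F3 summit on the side of the gene body, and held 912 of the 1176 IgG reads (77.6%) and 287 of the 492 wild-type E2F3 reads (58.3%) of the window. The bin from 39024501 to 39025000 alone had 306 IgG reads, and 97 and 100 reads of the E2F3 antibody, 91 and 133 of HELLS and 62 and 40 of H3K27me3 in wild-type and E2f3-null cells. All libraries were thus high at the same places, whatever the antibody.

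The IgG reads inside these bins were packed into short stretches on both strands. The shortest stretch with 80% of the reads of a bin ranged from 38 to 191 bp (median 94 bp over the 10 bins), and, counted by 5′ ends, 462 reads were on the plus and 470 on the minus strand. Relative to IgG, the 6 ChIP libraries had between 0.284 (E2f3-null H3K27me3, 0.235 to 0.342) and 0.621 times (E2f3-null HELLS, 0.551 to 0.698) as many reads. HELLS reads in them were 268 with and 412 without E2f3. The peak at the start of the gene lay outside these bins. What these reads come from was not tested.

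**Figure D4:**
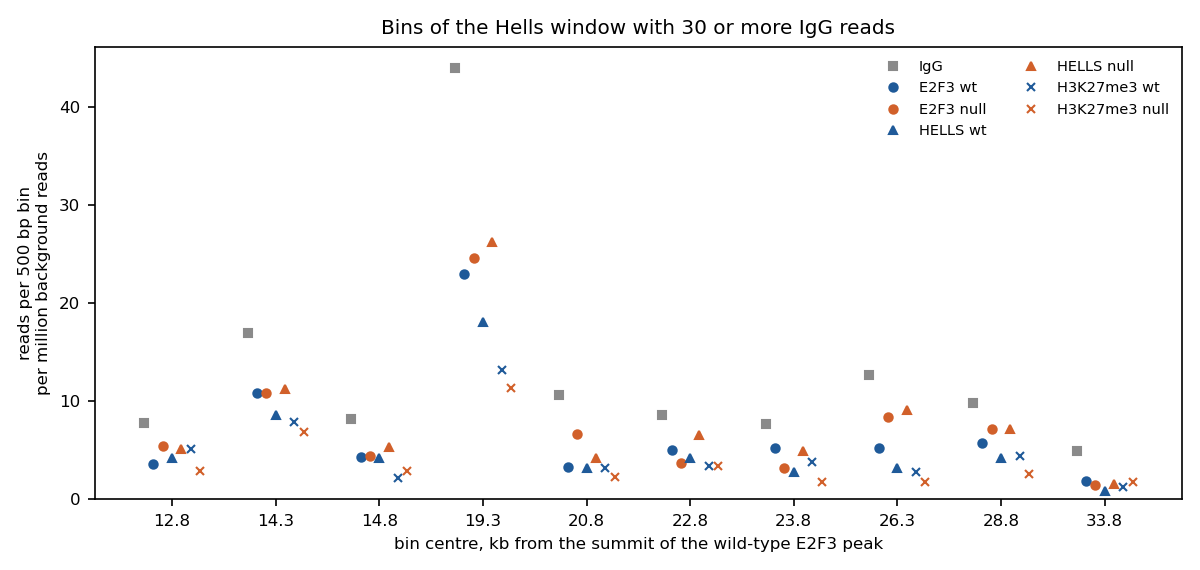
Normalised reads (vertical axis) in the 10 bins of 500 bp of the Hells window with 30 or more IgG reads, against the bin centre in kb from the summit of the wild-type E2F3 peak; each mark is 1 library. IgG (grey squares) is the highest mark in each bin, and 1 bin, with 306 IgG reads, is the highest for every library.

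Whole-window totals at Hells followed these bins. Over the whole window HELLS had 415 wild-type and 557 E2f3-null reads, a ratio of 1.33 (1.17 to 1.52), and the E2F3 antibody 492 and 422, a ratio of 0.891 (0.781 to 1.02). Without the 10 bins the HELLS ratio was 0.980 (0.773 to 1.24) and the E2F3 ratio 0.578 (0.456 to 0.730). At E2f1 the whole-window E2F3 ratio was 0.428 (0.335 to 0.544), and 0.926 (0.636 to 1.34) once the bins under listed peaks were left out. At E2f3 it was 0.784 (0.670 to 0.918) and 0.883 (0.743 to 1.05). Outside the bins under listed peaks the intervals of these totals thus included 1. A total over a window can hide a local fall. The higher-coordinate maximum of E2f3 lay outside those bins, with 38 and 5 reads and a ratio of 0.137 (0.0420 to 0.348). Without its 3 bins rich in IgG reads the E2f3 ratio was 0.857 (0.725 to 1.01).

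The fall of the E2F3 antibody at these loci lay inside the spread of all E2F3 regions of the series. The regions at E2f1 and Hells were both lower by at least 2-fold with an interval that excluded 1, as were 66.8% of all 9643 E2F3 regions, while 0.954% were higher. At E2f1 21.3% of these regions had a lower ratio, and at Hells 15.1%. Both regions were chosen by wild-type E2F3 score, and that at Hells is listed in wild type alone, so their calls and places lean low. All 9643 regions come from lists too, with 8889 wild-type and 3314 E2f3-null peaks, so the 66.8% is shaped by listing. The 2 loci were not told apart at this depth, with a ratio of their ratios of 1.20 (0.601 to 2.47). Their wild-type enrichment over IgG was high, with 6.18% and 7.65% of E2F3 regions at or above that of E2f1 and Hells. The E2f1 region and the E2f3 bin were chosen by wild-type E2F3 and not by HELLS. The HELLS ratio divided by the E2F3 ratio thus leans high there. Where HELLS stood above IgG, this quotient was 4.58 (2.45 to 8.65) at E2f1 and 5.18 (2.19 to 12.8) at the E2f3 bin. Scaled to the regions listed in both genotypes, a comparison added after these values were seen, it was 1.81 (0.968 to 3.42) and 2.05 (0.865 to 5.04), so both intervals then included 1. Under the same scaling, where the median log2 ratio of the shared E2F3 regions was -1.16, the E2F3 ratio itself was 0.494 (0.329 to 0.724) at E2f1, 0.413 (0.226 to 0.707) at Hells and 0.611 (0.321 to 1.09) at the E2f3 bin, which ended the call at E2f3.

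**Figure D5:**
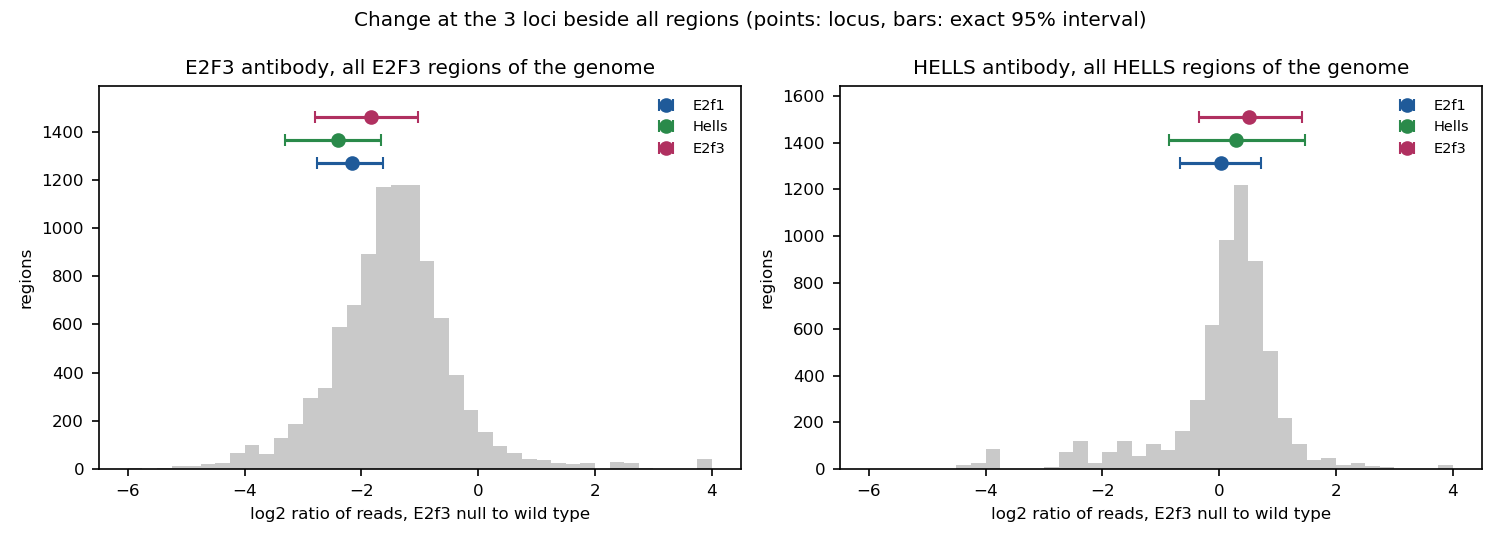
Number of regions (vertical axis) by log2 null-to-wild-type ratio (horizontal axis, bins of 0.25, with values beyond the ends put in the end bins) for all E2F3 regions (left) and all HELLS regions (right). Points with exact 95% intervals mark the leading regions of E2f1 (-2.16 for E2F3, 0.028 for HELLS), Hells (-2.40 and 0.28) and E2f3 (-1.84 and 0.52). The points lie within the range of the bars for both antibodies. They are not all of the same kind as the bars, since all were chosen by wild-type E2F3. The E2f3 point is a 500 bp bin in no E2F3 list, and the Hells point is in no HELLS list.

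Of the 4 HELLS regions in the windows, 1 was lower and 0 were higher, beside 4.65% lower and 5.20% higher of all 5962 HELLS regions. The lower region lay on chromosome 13 from 30000387 to 30000779, towards the far end of the E2f3 window, with 12 wild-type and 2 E2f3-null HELLS reads and 2 IgG reads (ratio 0.166, 0.0180 to 0.744). The authors' deposited table gives this wild-type peak a score of 53.18 and a false discovery rate of 8.09%, so it is among the weaker peaks of its list, at place 2001 of 2489. The region is in the list through the wild-type library alone, so its reads had to lean that way, and nothing is read from the call. It held 2 reads of the E2F3 antibody in each genotype. The region on chromosome 2 from 154384382 to 154384829, 11038 bp from the E2F3 summit of E2f1 and on the side of the gene's end, had 14 and 17 HELLS reads beside 11 of IgG. Its E2F3 reads were 16 and 5, a ratio of 0.325 (0.0930 to 0.928), without a listed E2F3 peak.

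Bins of 500 bp showed little beyond these places. A bin was called enriched at 2-fold or more over IgG with an interval that excluded 1, among bins with at least 10 reads of antibody and IgG together. Wild-type E2F3 was enriched in 3 of 5 tested bins at E2f1, 2 of 20 at Hells and 1 of 12 at E2f3, beside 26.6% of tested bins over the genome. The E2F3 antibody in E2f3-null cells was enriched in 1 of 5, 0 of 19 and 1 of 12 (8.06% over the genome). HELLS was enriched in 2 of 9, 0 of 20 and 2 of 15 in wild-type (6.96%) and in 3 of 7, 0 of 19 and 1 of 12 in E2f3-null cells (9.96%). All of these enriched bins touched a listed peak of some antibody. The 10 bins at Hells and 3 at E2f3 with at least 30 IgG reads were tested through IgG alone. The shares over the genome are therefore not a like background at these 2 loci. The higher-coordinate maximum of E2f3 lay in no called bin, although wild-type E2F3 reads in its stretch were 10.4 times IgG (4.37 to 30.1). The bin from 30077501 to 30078000 held 33 wild-type E2F3 reads beside 31 of IgG.

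No H3K27me3 peak was listed in any of the windows. No bin was enriched for the mark: 0 of 5 tested bins at E2f1, 0 of 11 at E2f3 and 0 of 19 at Hells in wild type. In E2f3-null cells it was 0 of 4, 0 of 11 and 0 of 19. Over the genome 33.3% and 28.6% of tested bins were enriched in wild-type and E2f3-null cells. These shares are not a like background, since 10 tested bins at Hells and 3 at E2f3 passed the minimum of 10 reads on IgG alone. Over whole windows wild-type H3K27me3 reads were 0.844 times IgG (0.640 to 1.11) at E2f1, 0.580 times (0.497 to 0.675) at E2f3 and 0.373 times (0.328 to 0.424) at Hells. Without the bins rich in IgG reads the last 2 values were 0.646 (0.547 to 0.761) and 0.424 (0.324 to 0.549). The null-to-wild-type ratio of H3K27me3 over whole windows was 0.812 (0.564 to 1.16) at E2f1, 0.737 (0.590 to 0.916) at E2f3 and 0.775 (0.639 to 0.938) at Hells, and without the same bins it was 0.815 (0.649 to 1.02) at E2f3 and 0.724 (0.483 to 1.07) at Hells. At the leading regions H3K27me3 was called lower in E2f3-null cells at Hells alone, on the 8 and 0 reads given above. With the 0 set to a floor of 3 reads the fall was 1.99-fold, short of the 2-fold rule. Of all H3K27me3 regions 41.3% were lower and 2.75% higher, but the Hells region is in no H3K27me3 list, so these shares are not a like background. Scaled to the shared regions the call at Hells ended (upper bound 1.59). The counts over the genome then went from 7669 lower and 510 higher to 1047 and 2020.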

How the data were processed

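DNA was amplified for 22 PCR cycles, per the labels' protocols. The deposited read files list single aligned reads. Their build is mm9 according to the submitters' processing notes, and the aligner is not given in the sources used here. MACS 1.4.0beta made a peak list for every ChIP library at a p cutoff of 1e-05, with IgG as control and regional lambda, per the file headers. Each deposited peak carries a count of tags, a score that grows as its p-value falls, a fold enrichment (ratio) and a false discovery rate in percent.

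Reads with equal position and strand were counted once here, and each was placed 60 bp downstream of its 5′ end. Per antibody, peaks of the genotypes were joined into regions where they shared 1 bp. Counts were scaled by distinct reads outside the 27092 merged peaks of the series. Ratios carry exact conditional binomial 95% intervals, levels carry Poisson intervals, and 0.5 was added to counts for log2 values. The leading region of a locus was the merged region of its highest-scoring wild-type E2F3 peak or, with none listed, the 500 bp bin with most wild-type E2F3 reads. Named were the 3 genes, all peaks in their windows and, per library, the bin with most reads. The interval code was tested on simulated counts, where 96.6% of intervals for E2F3, 96.7% for HELLS and 96.9% for H3K27me3 held the true ratio, over 9643, 5962 and 18563 regions. The loci and lists were chosen with earlier results of these data known. Python 3.11.15, numpy 2.4.6 and scipy 1.17.1 were used.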

Additional observations from a re-analysis of the deposited data

How the results depend on the processing

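With 1 library per group, no replicate could be left out. No paired analysis was possible because each group has 1 library. Counting every deposited read, leaving reads unmoved, scaling by all distinct reads or merging peaks only where 50% of the shorter was shared left all values within their intervals and all counts within 1.5 times. Peaks of score 100 or more gave the same leading regions. Scaling to the median of shared regions, which takes out their common change, moved the log2 ratio of E2F3 to -0.999 at E2f1, -0.68 at E2f3 and -1.24 at Hells. It gave 1459 lower and 607 higher regions over the genome for E2F3, 452 and 149 for HELLS and 1047 and 2020 for H3K27me3. Peaks of score 100 or more gave 1 higher region for E2F3, 7 lower and 120 higher for HELLS, and 4805 lower and 53 higher for H3K27me3, and a 1.5-fold threshold gave 638 higher for HELLS.

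In 500 bp at the E2f1 summit, the log2 ratio of H3K27me3 was -2.08 (8 reads against 1), and log2 ratios to IgG were 4.88 for wild-type E2F3, 2.43 for E2f3-null HELLS and 0.95 for wild-type H3K27me3. No such window was used at E2f3, which has no listed E2F3 summit. Bins of 250 bp gave 5 enriched for wild-type E2F3 and 1 for wild-type HELLS at E2f1, and 3 for wild-type and 0 for E2f3-null E2F3, 1 for wild-type and 2 for E2f3-null HELLS at E2f3. Bins of 1000 bp gave 1 each for wild-type E2F3 and both HELLS libraries at E2f1, 0 for E2f3-null E2F3 at E2f3 and 1 for wild-type E2F3 at Hells. A minimum of 20 reads gave 1 for wild-type HELLS at E2f1 and at E2f3. Without bins under listed peaks the whole-window log2 ratio of E2F3 was -0.11 at E2f1 and 0.077 at Hells. Without bins of 30 or more IgG reads, chosen after seeing the data, it was -0.79 at Hells, and that of HELLS turned from 0.41 to -0.030. Beyond the settings' own construction the causes were not tested.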
